A study of Mus musculus with 15 samples.

Results

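The 4 Janus kinase genes (Jak1, Jak2, Jak3 and Tyk2) and 5 STAT genes (Stat2, Stat3, Stat5a, Stat5b and Stat6) were followed across WT and JAK2/IDH2-mutant stem and progenitor cells under 4 treatments. These 9 genes were chosen by name as members of both families, with no rule on their values, out of 45232 gene IDs in the count table. Earlier results of these data were known when they were chosen. All 9 passed the filter on low counts, as did 17834 genes in all. Messenger RNA was measured by RNA sequencing in 15 libraries of LSK cells, the lineage-negative, Sca-1 positive, c-Kit positive fraction of bone marrow, with 3 libraries in each of 5 groups.

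Janus kinases are tyrosine kinases bound to the inner ends of cytokine receptors that lack a kinase of their own. When a cytokine brings receptor chains together, the kinases phosphorylate each other, the receptor and STAT proteins, which then pair, enter the nucleus and bind DNA. In blood formation JAK2 serves the receptors for erythropoietin, thrombopoietin and several myeloid cytokines, and the V617F change in its pseudokinase domain keeps it active in many myeloproliferative neoplasms. These are protein events that RNA levels do not measure.

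All libraries were labelled as CD45.2+ LSK cells of C57BL/6 mice and were made from amplified RNA (SMARTer). The WT group was labelled Wild Type, and the labels name no drug for it. The other 4 groups came from recipients of Jak2 V617F Idh2 R140Q double-mutant marrow. In the study's model both alleles were conditional and were recombined by Mx1-Cre, a recombinase driven by an interferon-inducible promoter and switched on with polyI:polyC. Mutant CD45.2 marrow was mixed with WT CD45.1 competitor marrow and transplanted into lethally irradiated CD45.1 hosts, and the sort on CD45.2 selected the donor cells. Recipients were given vehicle, AG221 at 40 mg/kg (an inhibitor of mutant IDH2), ruxolitinib at 60 mg/kg (an inhibitor of JAK1 and JAK2) or both drugs, named combined treatment below, for 21 to 28 days. Drugs were given by gavage in 2 doses a day, and the last dose preceded sacrifice by 1.5 hours. The sources used here leave unsaid if mice were pooled for a library, so p-values measure the spread between libraries, which may be partly technical. Ages of the mice were not given for single libraries.

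Total counts ranged from 18836625 to 32174287 per library. Values are CPM, the share of a library's counts on a common scale, adjusted by TMM for differences in RNA composition, and 3 counts, taken as the detection floor, equal 0.0957 to 0.157 CPM. The LSK markers were present in every group, with 10 of 10 above that floor and a sum of 4152.3 to 4579.3 CPM in WT and 2125.8 to 3560.9 CPM in the mutant groups. Summed markers of other cell types also differed with genotype, although a few genes carry each sum: plasma cell markers (mostly Xbp1 and Jchain) reached 605 to 1314.7 CPM in WT and 36.0 to 222 in the mutant groups, and mast cell and basophil markers (led by Cpa3) 71.6 to 152 and 254 to 990.0 CPM. Erythroid markers (mostly Car1 and Tfrc) summed to 376 to 505 CPM in WT and 740.0 to 4086.3 in the mutant groups, megakaryocyte markers (mostly Itga2b) to 249.4 to 338 and 352 to 935, and B-lineage markers (mostly Cd79b, whose own range in WT overlapped those with AG221 and combined treatment) to 81.7 to 122 and 31.9 to 65.0 CPM. Xbp1 in WT (133 to 254 CPM) overlapped its ranges with ruxolitinib (29.8 to 142 CPM) and combined treatment (145 to 159 CPM). Itga2b in WT (137 to 182 CPM) overlapped its range with AG221 (144 to 381 CPM). The WT ranges of Jchain, Cpa3, Car1 and Tfrc overlapped with no mutant group. In the T and NK cell list Nkg7 made up 91.5% of the sum (150 to 216 CPM in WT, 362 to 760 in the mutant groups), while Cd3e was at most 1.24 CPM in any library and Lck had a higher median in WT (39.6 CPM) than in any mutant group (14.4 to 24.8 CPM). Their part in the members' differences was not tested. Xist reached 455 to 511 CPM in WT libraries and at most 19.5 CPM in the mutant groups. Ddx3y was at or under 0.101 CPM in WT and at 124 to 206 CPM in the mutant groups. The WT libraries thus had the X- and Y-linked pattern of female cells and the mutant libraries that of male cells. In every comparison against WT, sex and genotype cannot be told apart. Every replicate name starts with a letter, which is B for WT and combined treatment and A for the other groups. The meaning of the letter is not given in the sources used here, and in comparisons across it the letter and the group cannot be told apart. Over the 9458 genes with a mean log2 CPM above 3, the first principal component (component 1) carried 61.6% of the variance. AG221 A8 (-83.0), AG221 A10 (-74.6), ruxolitinib A16 (-49.4) and vehicle A1 (-32.8) had the lowest scores, AG221 A9 followed at -12.5, the other libraries with the letter A lay between -2.82 and 6.31, and those with the letter B between 29.2 and 49.0. In bulk RNA, fewer cells of a type and less RNA per cell cannot be told apart.

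Upstream DNA is shown for Jak2 and Stat6, the members called in both vehicle against WT and combined treatment against vehicle, and for Stat2, whose window held the only match to a STAT-type motif. Each stretch is the 250 bases before the RefSeq transcription start (GRCm38.p6), 5′ to 3′ on the gene's strand, with CG dinucleotides, the sites of DNA methylation, in capitals.
Jak2, chr19:29251553-29251802, + strand: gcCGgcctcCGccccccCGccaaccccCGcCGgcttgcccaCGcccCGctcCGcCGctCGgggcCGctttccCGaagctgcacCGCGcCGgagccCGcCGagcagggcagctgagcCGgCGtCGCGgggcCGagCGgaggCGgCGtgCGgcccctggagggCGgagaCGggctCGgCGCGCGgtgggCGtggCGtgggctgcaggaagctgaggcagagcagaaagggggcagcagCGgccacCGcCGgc
Stat6, chr10:127642736-127642985, + strand: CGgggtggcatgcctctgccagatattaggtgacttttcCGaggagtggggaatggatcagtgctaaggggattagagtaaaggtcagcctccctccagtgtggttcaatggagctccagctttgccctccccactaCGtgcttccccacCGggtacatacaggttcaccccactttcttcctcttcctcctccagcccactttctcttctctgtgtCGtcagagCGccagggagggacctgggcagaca
Stat2, chr10:128270248-128270497, + strand: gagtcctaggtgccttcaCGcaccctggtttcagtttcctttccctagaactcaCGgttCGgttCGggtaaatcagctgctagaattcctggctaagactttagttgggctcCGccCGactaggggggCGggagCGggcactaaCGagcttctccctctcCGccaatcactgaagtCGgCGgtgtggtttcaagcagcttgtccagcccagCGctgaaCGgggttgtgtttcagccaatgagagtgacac
The Jak2 stretch held 37 CG dinucleotides, more than all but 1.88% of 32851 promoters of the same length, whose median was 6 (quartiles 2 and 16). Stat6 held 6 and Stat2 held 14. DNA methylation was not measured in these libraries. The palindrome TTCNNNGAA, which STAT proteins bind, and its variant with 4 free bases between TTC and GAA in place of 3 were searched from 250 bases before to 50 after the start, on both strands at once because they are palindromes. TTCNNNGAA matched in no member's window, against 8.30% of all promoters. The variant, with the spacing that STAT6 prefers, matched only in Stat2, as TTCCCTAGAA at position -210, against 6.95% of all promoters.

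Relative to exon length, Jak1 was the most abundant member in WT cells and Jak2 the least. WT levels in CPM per kb of merged exon were 70.4 ± 6.83 for Jak1, 46.0 ± 1.98 for Jak3, 15.7 ± 1.76 for Tyk2 and 6.48 ± 1.12 for Jak2 (SD, n = 3). Among the STAT genes they were 39.5 ± 2.09 for Stat6, 37.0 ± 2.25 for Stat5b, 34.4 ± 2.90 for Stat3, 28.8 ± 2.90 for Stat5a and 11.8 ± 1.35 for Stat2 (SD, n = 3). With all 9 ordered by these means, the WT libraries of Stat6 and Stat5b overlapped, as did those of Stat5b and Stat3, and every other pair of neighbours was apart. The order of the STAT genes depends on the length used. Dividing by the longest transcript gave, in WT, 54.2 CPM per kb for Stat3, 51.9 for Stat5a, 46.0 for Stat6, 39.3 for Stat5b and 15.9 for Stat2. The order of the kinases stayed the same. Jak2 had the lowest mean of the 4 kinases in every group, at 4.38 CPM per kb with vehicle and 9.33 with combined treatment. With AG221 the Jak3 libraries ran from 3.80 to 27.4 CPM per kb, and the lowest was below every Jak2 library (5.30 to 6.27). With combined treatment the Jak2 libraries (8.08 to 10.5 CPM per kb) overlapped those of Stat2, which then had the lowest mean at 8.82. Per kb of the longest transcript Jak2 stayed the lowest member with combined treatment, at 9.33 against 11.89 for Stat2.

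**Figure D1:**
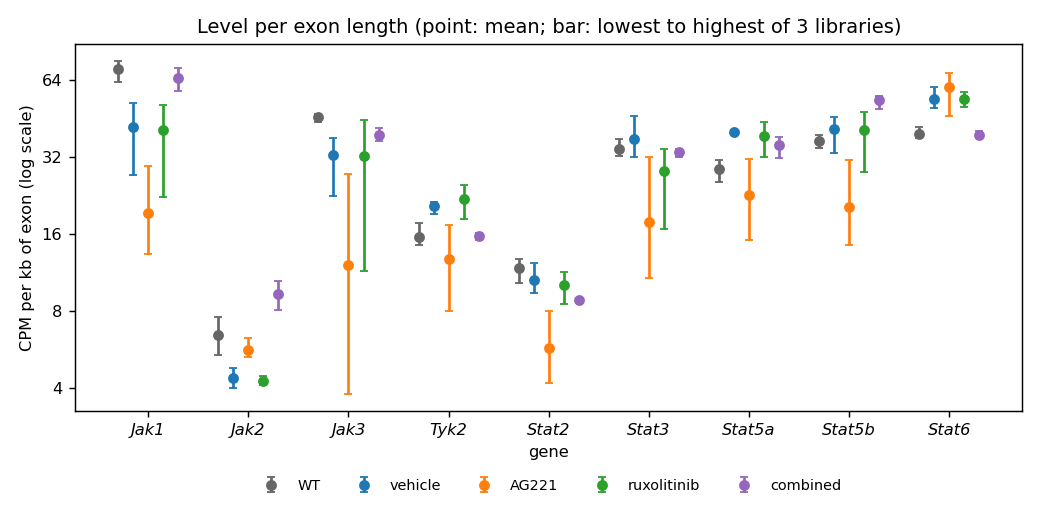
Mean level of each gene per kb of merged exon (CPM per kb, log axis), with bars from the lowest to the highest of 3 libraries in each group. Jak1 led in WT at 70.4 CPM per kb, and Jak2 had the lowest mean of the kinases in every group.

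Jak2, the kinase that carries the activating allele in this model, was lowest with vehicle and ruxolitinib and highest with combined treatment. It was at 32.3, 38.4 and 27.1 CPM in the WT libraries B28, B30 and B31. It was at 21.8, 20.1 and 24.1 CPM in the vehicle libraries A1, A3 and A4. It was at 47.3, 52.9 and 40.7 CPM in the combined libraries B24, B25 and B26. On this TMM scale these 3 groups did not overlap: every vehicle library was below every WT library, and every combined library was above both. Scaled by library size alone, combined B26 (40.8 CPM) was below WT B30 (44.6 CPM), so combined treatment and WT overlapped. The AG221 libraries A8, A9 and A10 (26.7, 31.5 and 27.0 CPM) were above vehicle and reached into the WT range. The ruxolitinib libraries A14, A16 and A17 (22.6, 21.1 and 20.8 CPM) lay within the vehicle range. Counts per gene do not separate reads of the mutant Jak2 allele from those of the WT allele, and 0% of the 50-base stretches of Jak2 transcripts occurred in another gene.

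Stat6, the mediator of interleukin 4 and interleukin 13 signals, differed in the opposite direction. It was at 184, 167 and 171 CPM in WT (B28, B30, B31). It was at 264, 230 and 218 CPM with vehicle (A1, A3, A4). It was at 179, 168 and 170 CPM with combined treatment (B24, B25, B26). On the TMM scale WT and combined libraries overlapped, and all vehicle libraries were above both. AG221 gave 300, 203 and 286 CPM (A8, A9, A10) and ruxolitinib gave 237, 253 and 221 CPM (A14, A16, A17), so that on this scale every library with the letter A was above every library with the letter B. Scaled by library size alone, vehicle A4 (202 CPM) and AG221 A9 (196 CPM) were below WT B28 (209 CPM). All combined libraries (164 to 182 CPM) were then below all WT libraries (193 to 209 CPM).

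**Figure D2:**
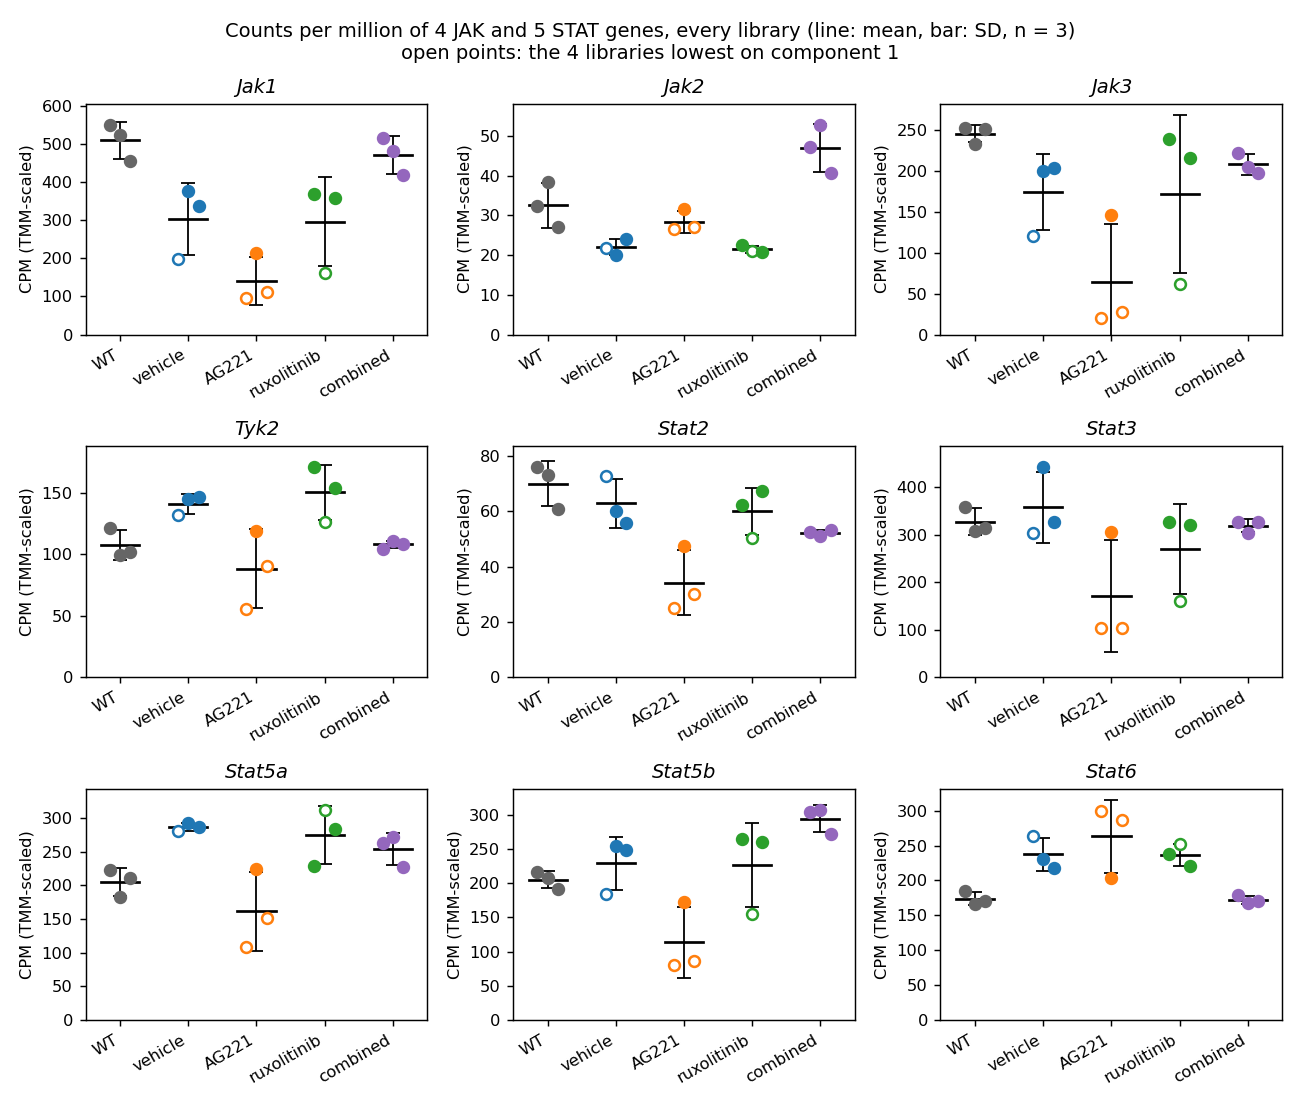
TMM-scaled CPM of the 9 genes in every library (points), with the group mean (line) and SD (bar, n = 3); open points are the 4 libraries lowest on component 1. Jak2 separates vehicle (20.1 to 24.1 CPM), WT (27.1 to 38.4 CPM) and combined treatment (40.7 to 52.9 CPM), and the open points are the lowest of their groups for Jak1, Jak3 and Stat3.

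Vehicle against WT asks how the double-mutant cells differ from WT cells without a drug, and here 2 of 9 members were called at an adjusted p under 0.05 (edgeR quasi-likelihood F test, adjusted by Benjamini and Hochberg's method across all tested genes). Of all tested genes 33.3% were called in this comparison, 15.4% higher and 17.9% lower, so the members' count is not above the background. Jak2 fell by 0.57 on the log2 scale (SE 0.162, edgeR adjusted p = 0.0201), to 0.676 of its WT level. Stat6 rose by 0.45 (SE 0.141, edgeR adjusted p = 0.0284), a 1.37-fold difference. Neither call held in every fit with 1 library left out: Jak2 lost it without vehicle A1 or A3 or WT B28 or B30 (adjusted p up to 0.106), and Stat6 without vehicle A1 or WT B30 or B31 (up to 0.102). With GC content offsets the members called were Tyk2, Stat5a and Stat6 (38.9% of all tested genes were called), and with upper quartile normalization they were Jak1 and Jak2 (27.4%). The direction of both genes was the same under every setting.

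The other kinases and STAT genes did not pass the test between vehicle and WT. Jak1, the kinase shared by interferon, interleukin 6 and common gamma chain receptors, had a log2 difference of -0.74 (SE 0.337, edgeR adjusted p = 0.101). Its vehicle libraries (197, 377 and 337 CPM in A1, A3 and A4) were all below its WT libraries (550, 522 and 454 CPM in B28, B30 and B31). Stat5a had a log2 difference of 0.48 (SE 0.209, edgeR adjusted p = 0.0872), and its vehicle libraries (281, 292 and 287 CPM) were all above its WT libraries (223, 183 and 210 CPM). Tyk2, which pairs with JAK1 or JAK2 at type I interferon and interleukin 12 receptors, was at 131 to 147 CPM with vehicle and 99.2 to 121 CPM in WT, a log2 difference of 0.39 (SE 0.214, edgeR adjusted p = 0.167). With the 4 libraries lowest on component 1 left out, a choice made after seeing the data, 6 members were called, beside 30.5% of the genes tested in that fit: Jak1, Jak2, Tyk2, Stat5a, Stat5b and Stat6. Jak3 (-0.49), Stat2 (-0.15), Stat3 (0.13) and Stat5b (0.16) had edgeR adjusted p-values from 0.545 to 0.81.

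**Figure D3:**
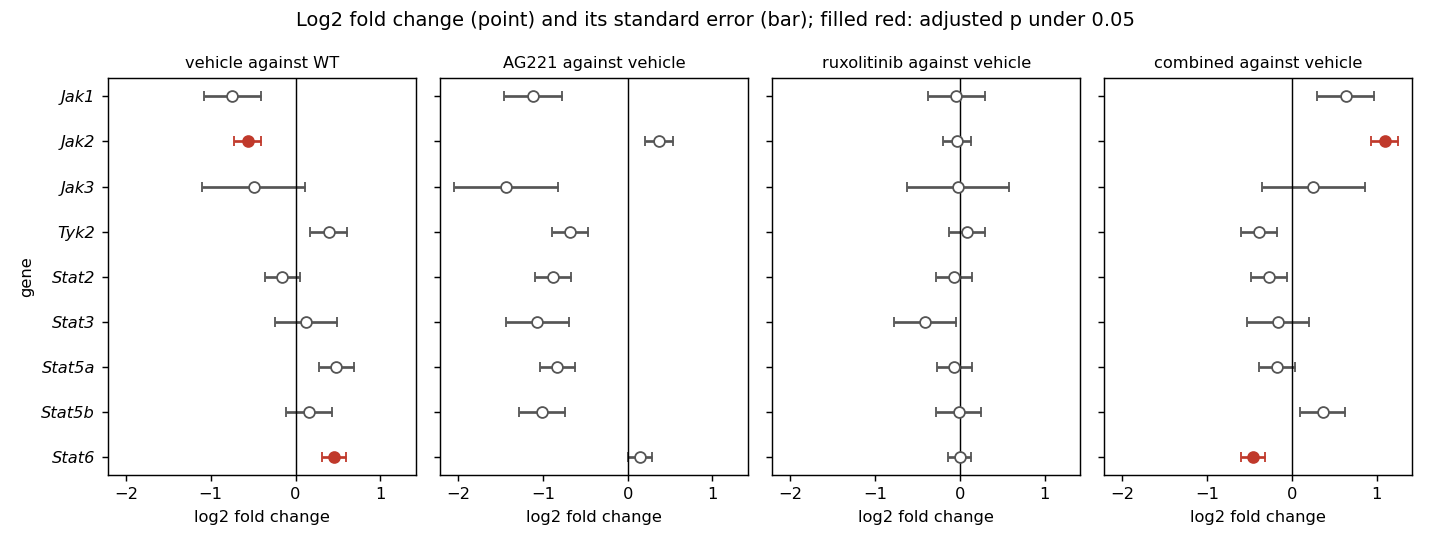
Log2 fold change (point) with its standard error (bar) of the 9 genes in 4 comparisons, filled where the edgeR adjusted p was under 0.05. Jak2 and Stat6 are filled in opposite directions in vehicle against WT (-0.57 and 0.45) and in combined treatment against vehicle (1.09 and -0.46), and no gene is filled with either drug alone.

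Combined treatment against vehicle asks what both drugs changed together, and the same 2 genes were called with reversed signs. Jak2 rose by 1.09 on the log2 scale (SE 0.164, edgeR adjusted p = 0.0021), a 2.13-fold difference. It was called in 6 of 6 fits that each left out 1 library, with log2 changes from 0.99 to 1.18. Stat6 fell by 0.46 (SE 0.141, edgeR adjusted p = 0.047), and it lost the call in 6 of 6 such fits, in which its log2 change lay between -0.52 and -0.38. It also lost the call with GC content offsets, upper quartile or RLE normalization and no filter (edgeR adjusted p from 0.0611 to 0.149). Of all tested genes 12.5% were called, 8.28% higher and 4.21% lower. Vehicle against WT and combined treatment against vehicle share the vehicle libraries, so their opposite signs are not independent of each other. In both comparisons the groups also differ in the name letter.

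Between combined treatment and vehicle, the remaining 7 members did not pass. Jak1 was at 515, 482 and 418 CPM with combined treatment (B24, B25, B26), above every vehicle library, with a log2 difference of 0.63 (SE 0.337, edgeR adjusted p = 0.254). Stat5b was at 305, 308 and 272 CPM, again above every vehicle library (184 to 254 CPM), with a log2 difference of 0.36 (SE 0.268, edgeR adjusted p = 0.429). Tyk2 was at 105, 111 and 108 CPM, below every vehicle library, with a log2 difference of -0.39 (SE 0.214, edgeR adjusted p = 0.278). Tyk2 was called lower with GC content offsets (-0.59, edgeR adjusted p = 0.0181), with only the groups compared (edgeR adjusted p = 0.0349) and with the 4 libraries lowest on component 1 left out (edgeR adjusted p = 0.0265). Jak3 (0.25), Stat2 (-0.27), Stat3 (-0.16) and Stat5a (-0.18) had edgeR adjusted p-values from 0.46 to 0.84. The sign for Jak3 depended on the processing, as its log2 difference was -0.22 with GC content offsets. The longest transcript of Jak3 is 61.0% G and C, the highest share among the members, and that of Jak2 44.3%, the lowest.

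Combined treatment against WT compares 2 groups that share the letter B, and 0 of 9 members were called by edgeR, against 3.25% of all tested genes. Without adjustment, 1 member (Jak2) had p under 0.05, beside 25.4% of all tested genes. Jak2 had a log2 difference of 0.53 (SE 0.162, edgeR adjusted p = 0.0779), with every combined library above every WT library on the TMM scale but not with library size alone. DESeq2 called 1 member, Jak2 (4.9% of the 37835 genes to which it gave a p-value, many of them removed by the filter for edgeR), as did edgeR with GC content offsets (4.31% of tested genes). Those were the only calls of Jak2 among 7 other settings, in which its log2 difference went down to 0.32. It was called in 0 of 6 fits with 1 library left out (edgeR adjusted p from 0.0913 to 0.243). Stat5b, which with Stat5a acts downstream of the erythropoietin and thrombopoietin receptors, had a log2 difference of 0.52 (SE 0.268, edgeR adjusted p = 0.238) and was above WT in 3 of 3 combined libraries. Stat2, the partner of IRF9 in interferon-stimulated transcription, was at 52.4, 51.1 and 53.3 CPM with combined treatment against 76.0, 73.3 and 61.0 CPM in WT, a log2 difference of -0.42 (SE 0.209, edgeR adjusted p = 0.224). A fit restricted to these 6 libraries called Stat2 and Stat5b, beside 10.6% of the genes tested in it. For Stat6 the log2 difference was -0.01 (SE 0.141).

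Ruxolitinib against vehicle gave 0 of 9 members called by edgeR and by DESeq2, none with an unadjusted p under 0.05 (4.56% of all tested genes had one), and 0.0168% of all tested genes were called by edgeR. Log2 differences ran from -0.41 for Stat3 (SE 0.368) to 0.09 for Tyk2 (SE 0.213), with edgeR adjusted p = 1 for each member. The targets of the drug showed little difference between the group means: Jak1 averaged 295 ± 117 CPM against 304 ± 94.3 CPM with vehicle, and Jak2 21.5 ± 0.943 CPM against 22.0 ± 1.99 CPM (SD, n = 3). The standard errors of 0.336 for Jak1 and 0.604 for Jak3 leave room for sizeable differences in either direction. Against WT, ruxolitinib gave 2 of 9 members called, beside 32.3% of all tested genes: Jak2 at -0.60 (SE 0.163, edgeR adjusted p = 0.0165) and Stat6 at 0.45 (SE 0.141, edgeR adjusted p = 0.0299). Without ruxolitinib A16 or without WT B30 neither was called. With GC content offsets the called members were Tyk2, Stat5a and Stat6, and with upper quartile normalization Jak1 and Jak2.

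AG221 against vehicle gave 0 of 9 members called by edgeR, against 0.987% of all tested genes, while 8 of 9 had an unadjusted p under 0.05, beside 25.2% of all tested genes. DESeq2 called 6, beside 6.32% of the 37835 genes to which it gave a p-value. Those include genes that the filter for edgeR removed, so this share is not on the same base as the edgeR shares. The spread within the AG221 group was wide. Jak3, the kinase of common gamma chain receptors, was at 20.3, 147 and 27.4 CPM in A8, A9 and A10. The vehicle libraries were at 121, 200 and 204 CPM (A1, A3, A4), so A8 and A10 lay far below vehicle while A9 lay within its range. Stat3, which serves the gp130 and granulocyte colony-stimulating factor receptors, was at 102, 306 and 103 CPM in the AG221 libraries against 304, 442 and 327 CPM with vehicle. Again A9 overlapped with vehicle and the other libraries did not. Stat5b was at 80.6, 173 and 86.5 CPM with AG221 against 184, 254 and 249.2 CPM with vehicle, and there all AG221 libraries were below all vehicle libraries.

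Log2 differences between AG221 and vehicle were -1.12 for Jak1 (SE 0.340), -1.43 for Jak3 (SE 0.617), -0.68 for Tyk2 (SE 0.215), -0.88 for Stat2 (SE 0.211), -1.07 for Stat3 (SE 0.372), -0.83 for Stat5a (SE 0.210) and -1.01 for Stat5b (SE 0.271). The edgeR adjusted p-values of these 7 genes lay between 0.0579 for Stat2 and 0.171 for Jak3. Jak2 (0.37, SE 0.162) and Stat6 (0.15, SE 0.141) had the opposite sign. The median over the members was -0.88, beside -0.01 over all tested genes. Without AG221 A9, 7 members were called, beside 24.4% of all genes tested in that fit, with Jak3 at -2.88, Stat3 at -1.81 and Jak1 at -1.56. With the 4 libraries lowest on component 1 left out, AG221 kept only A9, no member was called, and Jak3 was at -0.49 and Stat3 at -0.36.

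Against WT, AG221 gave 6 of 9 members called, beside 50.7% of all tested genes, of which 22.2% were higher and 28.5% lower. Jak1 fell by 1.86 on the log2 scale (SE 0.347, edgeR adjusted p = 0.00123), Jak3 by 1.93 (SE 0.626, edgeR adjusted p = 0.0213) and Stat2 by 1.04 (SE 0.212, edgeR adjusted p = 0.00203). Stat3 fell by 0.94 (edgeR adjusted p = 0.0479) and Stat5b by 0.85 (edgeR adjusted p = 0.0188), while Stat6 rose by 0.60 (SE 0.141, edgeR adjusted p = 0.00444). Without A9, Jak3 was at -3.35 and Stat3 at -1.66. Without AG221 A8 or without A10 the called members were Jak1, Stat2 and Stat6. Stat3 also lost the call without any 1 of the WT libraries, and Stat5b without WT B28. With GC content offsets or only the groups compared, Stat3 was not called (edgeR adjusted p = 0.0552 and 0.098). In AG221 A9, Jak1 was at 213 CPM, still below every WT library, whereas Stat3 at 306 CPM was next to the WT range of 309 to 359 CPM.

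**Figure D4:**
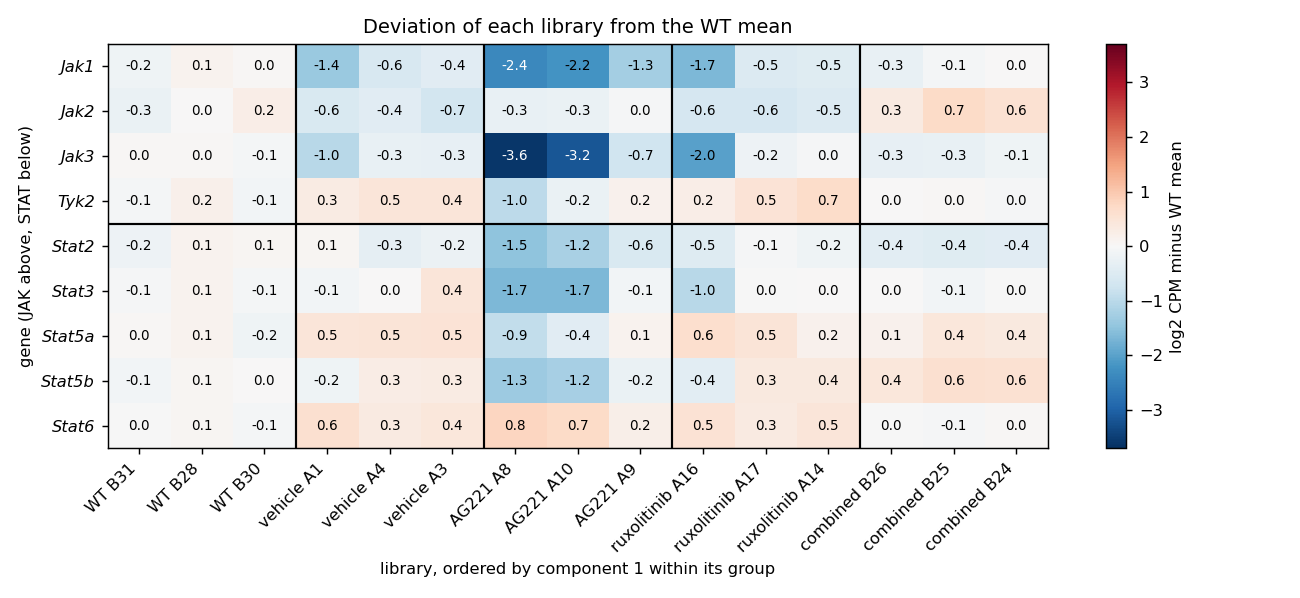
Log2 CPM of each gene in each library minus the WT mean of that gene (color and printed value), with libraries ordered by component 1 within groups. The deepest deviations are Jak3 in AG221 A8 and A10 (20.3 and 27.4 CPM), Jak1 in the same libraries (96.8 and 111 CPM) and Jak3 in ruxolitinib A16 (61.6 CPM).

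Combined treatment against AG221 alone gave 6 of 9 members called, beside 33.2% of all tested genes (18.9% higher and 14.3% lower). Jak1 was 3.37-fold higher (log2 1.75, SE 0.346, edgeR adjusted p = 0.00375), Stat5b 2.60-fold higher (log2 1.38, SE 0.273, edgeR adjusted p = 0.00378) and Jak2 1.65-fold higher (log2 0.73, SE 0.162, edgeR adjusted p = 0.00604). Stat2 (log2 0.61, edgeR adjusted p = 0.0388) and Stat5a (log2 0.65, edgeR adjusted p = 0.0297) were also higher, and Stat6 was lower (log2 -0.61, SE 0.141, edgeR adjusted p = 0.00691). Jak3 (log2 1.69, SE 0.621, edgeR adjusted p = 0.0511) and Stat3 (log2 0.90, SE 0.371, edgeR adjusted p = 0.0756) missed the threshold. Stat2 lost the call without AG221 A8 or A10 or any 1 of the combined libraries, and Stat5a without A8, A10, B24 or B25, whereas without A9 Jak3 and Stat3 were called as well (42.6% of all genes in that fit). With GC content offsets Stat5a moved to 0.07 (edgeR adjusted p = 0.796) and Stat2 to 0.46 (edgeR adjusted p = 0.0643). With upper quartile normalization Stat2, Stat5a and Jak2 lost the call, Jak2 at 0.43 (edgeR adjusted p = 0.0553), with only the groups compared Stat2 and Stat5a did, and with no filter Stat2 did. Jak3 was called with both of the first settings (edgeR adjusted p = 0.0479 and 0.0432). With A9 as the only AG221 library, after the 4 libraries lowest on component 1 were left out, Jak1 and Stat5b were called, beside 5.65% of all genes in that fit. Combined treatment against ruxolitinib alone gave 2 of 9 called, beside 12.4% of all tested genes: Jak2 was 2.19-fold higher (log2 1.13, SE 0.164, edgeR adjusted p = 0.00135) and Stat6 was lower (log2 -0.46, SE 0.141, edgeR adjusted p = 0.0485). Jak2 was called in 6 of 6 fits with 1 library left out and Stat6 in none of them.

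The interaction, the change with combined treatment minus the sum of the changes with each drug alone, was called for 2 of 9 members, beside 8.42% of all tested genes. Among the groups in this term only combined treatment has the letter B, so the letter and the interaction cannot be told apart. Jak1 departed from the sum by 1.79 on the log2 scale (SE 0.479, edgeR adjusted p = 0.0431) and Stat5b by 1.39 (SE 0.380, edgeR adjusted p = 0.0444). Jak2 (0.76, SE 0.229, edgeR adjusted p = 0.054) and Stat6 (-0.61, SE 0.200, edgeR adjusted p = 0.0655) missed the threshold. No member was called without vehicle A3 or A4, AG221 A8 or A10, ruxolitinib A16 or A17, or combined B24 or B25, and 8 were called without AG221 A9, beside 31.8% of all genes tested in that fit. A fit of only the groups compared called neither gene. With the 4 libraries lowest on component 1 left out, Jak1 was called at 1.13, beside 0.578% of all genes.

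Several members followed component 1 across the 15 libraries. Pearson's r of log2 CPM with the component score was 0.98 for Jak1, 0.903 for Jak3, 0.836 for Stat5b, 0.808 for Stat3, 0.698 for Stat2 and -0.94 for Stat6, given as a description because the libraries share groups and the members themselves entered the component. It was 0.584 for Jak2, 0.401 for Stat5a and 0.332 for Tyk2. Of the genes with a mean log2 CPM above 3, 18.7% had r above 0.8 and 21.0% had r below -0.8. Jak3 was at 20.3 and 27.4 CPM in the libraries with the lowest scores (AG221 A8 and A10), at 61.6 in ruxolitinib A16 and at 121 in vehicle A1. In all other libraries it was at 147 CPM or more. Mitochondrial genes took 1.46% of counts in both A8 and A10, 1.23% in A9 and 0.846% to 1.12% in the other libraries. Summed neutrophil markers ran from 15974.6 to 18776.7 CPM with AG221, 11493.0 to 18318.2 with ruxolitinib, 7287.5 to 12080.4 with vehicle, 3967.0 to 7032.2 with combined treatment and 3267.1 to 3627.7 in WT, with all 9 markers above the floor except Ly6g in WT. Mpo made up 67.8% of that sum and Elane 21.3%, genes that myeloid progenitors also express, and Ly6g had a median of at most 0.684 CPM in any group. Monocyte and dendritic cell markers, 9 of 9 above the floor in every group, summed to 1663.8 to 2459.5 CPM with AG221, 926.7 to 1641.2 with ruxolitinib, 1010.6 to 1151.0 with vehicle, 653.6 to 1069.0 with combined treatment and 462 to 514 in WT. The part of these measures in the members' differences was not tested.

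**Figure D5:**
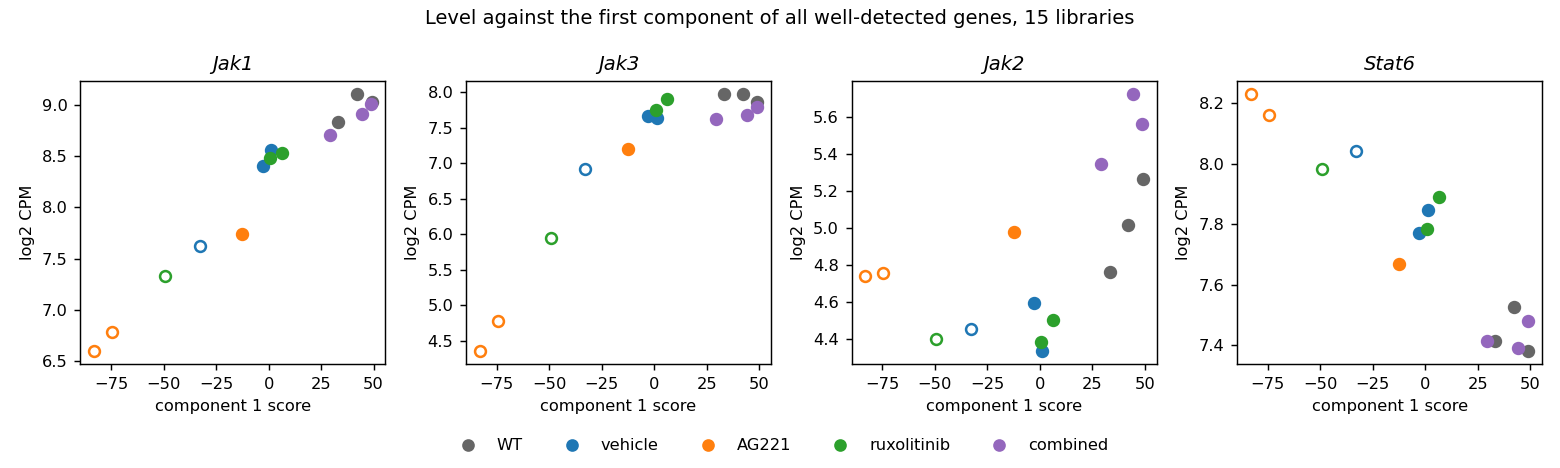
Log2 CPM of Jak1, Jak3, Jak2 and Stat6 against the component 1 score of each of the 15 libraries, colored by group, with the 4 lowest libraries open. Jak1 (r = 0.98) and Jak3 (r = 0.903) rise along the axis and Stat6 (r = -0.94) falls. Jak2 (r = 0.584) is lowest in the vehicle and ruxolitinib libraries, whose scores run from -49.4 to 6.31.

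Among the members, the closest pair over the 15 libraries was Jak3 and Stat3 (r = 0.96), followed by Jak1 and Jak3 (r = 0.94) and Jak3 and Stat5b (r = 0.92). Jak2 stood apart, with r between -0.36 and 0.44 with the other members except Stat6 (r = -0.70). Over all tested genes, those most similar to Jak2 were 2510039O18Rik (r = 0.973) and Slmap (r = 0.972). For Jak1 they were Nsmf (r = 0.995) and Rbl2 (r = 0.992), and for Jak3 Crtc2 (r = 0.996) and Aldh2 (r = 0.993). Among the STAT genes, Stat2 was closest to Clip2 (r = 0.955) and Khnyn (r = 0.946), and Stat3 to Dnajc5 and Ivns1abp (r = 0.975 for each). Stat5a was closest to Rbm43 (r = 0.971) and Stau1 (r = 0.962), Stat5b to Fam76a (r = 0.986) and Chd1l (r = 0.982), and Stat6 to Sec24c (r = 0.986) and Akap8 (r = 0.967). These values describe 15 libraries that share treatment groups.

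Stat5b, Stat5a and Stat3 are neighbours on chromosome 11 (GRCm38), at 100780731 to 100850724 on the minus strand, 100859351 to 100885169 on the plus strand and 100885098 to 100939540 on the minus strand. Stat5b and Stat5a are 8626 bases apart, and the ends of Stat5a and Stat3 overlap by 72 bases on opposite strands. Stat5a and Stat5b encode closely related proteins, and 10.985% of the 50-base stretches in Stat5b transcripts and 8.52% of those in Stat5a recurred in another gene, almost all of them in each other, so reads there could not be assigned to either gene with certainty. Stat5a took 49.98% ± 2.85 of the counts of both genes in WT, 55.8% ± 4.02 with vehicle, 59.2% ± 3.90 with AG221, 55.0% ± 10.6 with ruxolitinib and 46.2% ± 0.761 with combined treatment (SD, n = 3). The share was higher with vehicle than in WT and lower with combined treatment than with vehicle in all libraries, each at p = 0.1 in a two-sided exact permutation test, the smallest that 3 against 3 libraries allow (0.25 after adjustment over 15 such tests). Summed into 1 row, Stat5a plus Stat5b had log2 differences of 0.33 for vehicle against WT (edgeR adjusted p = 0.222), -0.91 for AG221 against vehicle (edgeR adjusted p = 0.0534) and 0.09 for combined treatment against vehicle (edgeR adjusted p = 0.836).

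Summed over the family, the 4 kinase genes stood at 895 ± 60.5 CPM in WT, 641 ± 148 with vehicle, 321 ± 166 with AG221, 639 ± 235 with ruxolitinib and 834 ± 63.5 with combined treatment (SD, n = 3). All vehicle libraries were below all WT and all combined libraries, each at an exact permutation p = 0.1 (0.25 adjusted). The 5 STAT genes summed to 982 ± 66.6 CPM in WT, 1174.0 ± 92.3 with vehicle, 743 ± 184 with AG221, 1068.1 ± 120 with ruxolitinib and 1092.6 ± 38.7 with combined treatment (SD, n = 3). Vehicle was higher than WT and higher than AG221 in all libraries, each at an exact permutation p = 0.1 (0.25 adjusted).

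The other members lie on separate chromosomes or stretches (GRCm38): Jak1 on chromosome 4 at 101152367 to 101265282, Jak2 on chromosome 19 at 29251828 to 29313080, Jak3 on chromosome 8 at 71676296 to 71690575 and Tyk2 on chromosome 9 at 21104068 to 21131243. Stat6 (127642986 to 127660957) and Stat2 (128270559 to 128292849) are both on chromosome 10. Of the exon bases of Jak3, 7.55% overlap Insl3 on the same strand, and of those of Tyk2, 8.07% overlap 1700084C06Rik on the opposite strand. The strand setting of the counting is not given in the sources used here, so reads in such overlaps are uncertain.

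The counts in the following lists stand beside 33.3% of all tested genes called in vehicle against WT (15.4% higher, 17.9% lower) and 12.5% in combined treatment against vehicle (8.28% higher, 4.21% lower). A list's share near or below these is not a result about that list. The lists were chosen with earlier results of these data known, so their counts are a description and not an independent test. Of the genes around the kinases, 30 JAK-coupled receptor genes were all tested. Between vehicle and WT 5 were higher and 2 lower, and between combined treatment and vehicle 0 were higher and 2 lower. Csf2rb, the shared beta chain of the interleukin 3, interleukin 5 and granulocyte-macrophage colony-stimulating factor receptors, averaged 55.9 ± 5.51 CPM in WT, 189 ± 39.0 with vehicle and 75.7 ± 23.1 with combined treatment (SD, n = 3). It rose by 1.76 on the log2 scale in vehicle against WT (SE 0.256, edgeR adjusted p = 0.000963) and fell by 1.32 in combined treatment against vehicle (SE 0.253, edgeR adjusted p = 0.00521). Csf2rb2, a near-identical paralog whose reads may be split with it, rose by 2.33 and fell by 2.38 in the same comparisons. Ifngr1, the binding chain of the interferon-gamma receptor, rose by 0.84 (SE 0.146) in vehicle against WT. Osmr, the oncostatin M receptor, was called lower in the same comparison (edgeR adjusted p = 0.00507), with a WT mean of 2.22 CPM and a vehicle mean of 0.0871 CPM, under the detection floor. The medians of the list were -0.02 and -0.11, beside -0.09 and 0.04 over all tested genes.

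Of 20 inhibitors of the pathway, 2 were higher and 4 lower in vehicle against WT, and 3 were higher and 3 lower in combined treatment against vehicle. Sh2b3, the adaptor LNK that restrains JAK2, averaged 25.5 ± 7.25 CPM in WT, 7.27 ± 0.382 with vehicle and 33.7 ± 11.6 with combined treatment (SD, n = 3). It fell by 1.81 (SE 0.333, edgeR adjusted p = 0.00373) and rose by 2.21 (SE 0.337, edgeR adjusted p = 0.00229) in these comparisons. Socs5, a member of the SOCS family of feedback inhibitors, fell by 1.89 and rose by 1.86, and Pias2, a SUMO ligase that binds STAT proteins, fell by 1.34 and rose by 1.61. Ptpn2, a phosphatase of JAK1 and JAK3, rose by 0.57 (SE 0.139) in vehicle against WT. Usp18, an inhibitor of type I interferon receptor signalling, fell by 0.92 (SE 0.208) in combined treatment against vehicle. The list's medians were -0.07 and 0.19.

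Of 20 STAT-responsive target genes, some of which are also feedback inhibitors, 6 were higher and 1 lower in vehicle against WT, and 1 was higher and 5 lower in combined treatment against vehicle. Osm, the cytokine oncostatin M and a target of STAT5, averaged 9.74 ± 0.631 CPM in WT, 144 ± 16.2 with vehicle, 86.4 ± 31.1 with AG221, 84.8 ± 28.3 with ruxolitinib and 14.2 ± 2.18 with combined treatment (SD, n = 3). It rose by 3.88 (SE 0.297, edgeR adjusted p = 4.91e-06) and fell by 3.34 (SE 0.290, edgeR adjusted p = 3.19e-05). Cdkn1a, a cell cycle inhibitor, rose by 3.002 and fell by 2.19. Id1, an inhibitor of basic helix-loop-helix factors, rose by 3.29 (SE 0.773) and fell by 2.97 (SE 0.765). Its level was low and varied widely with vehicle: 8.78 ± 9.44 CPM, against 0.896 ± 0.0491 in WT and 1.11 ± 0.523 with combined treatment (SD, n = 3). Junb, an AP-1 subunit, rose by 2.51 in vehicle against WT (SE 0.747), and Gfi1, a transcriptional repressor of blood stem cells, rose by 1.47 in combined treatment against vehicle (SE 0.376). Summed immediate early genes, 12 of 12 above the floor, ran from 5867.3 to 12265.5 CPM with vehicle, 656 to 913 in WT and 600 to 1100.5 with combined treatment, and their part in this list's differences was not tested. The list's medians were 0.45 and -0.32.

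Of 15 STAT cofactors and other partners, 2 were higher and 0 lower in vehicle against WT, and 1 was higher and 1 lower in combined treatment against vehicle. Stam, a JAK-binding adaptor, rose by 0.40 (SE 0.119, edgeR adjusted p = 0.0228) and Cdc37, the kinase-specific cochaperone of HSP90, by 0.41 (SE 0.146, edgeR adjusted p = 0.0471) in vehicle against WT. Grb2, the adaptor that links receptors to RAS, rose by 2.31 (SE 0.443, edgeR adjusted p = 0.00522) and Irf9, the DNA-binding partner of STAT2, fell by 0.75 (SE 0.185, edgeR adjusted p = 0.0173) in combined treatment against vehicle. The list's medians were 0.05 and -0.12. With AG221 against vehicle, 1 of the inhibitors was lower and no gene of the other lists was called by edgeR. With ruxolitinib against vehicle none of the 4 lists held a called gene, beside 0.0168% of all tested genes. Mean CPM with ruxolitinib, vehicle and combined treatment was 58.35, 116 and 69.05 for Irf9, and 12.8, 29.4 and 15.6 for Usp18. It was 8.45, 32.3 and 6.198 for Csf2rb2 and 97.6, 189 and 75.65 for Csf2rb. For Sh2b3, Socs5, Pias2 and Grb2 the ruxolitinib mean lay near vehicle, and for Osm, Cdkn1a and Id1 it lay between. For Gfi1 it was 3.42, beside 4.62 and 12.8.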

How the data were processed

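The authors deposited raw counts per Ensembl gene from paired-end RNA sequencing, aligned to mm10 with STAR (the submitters' processing notes name STAR 2.5.1a and DESeq2 1.6.3), and a DESeq2-normalized table that was not used here. All reads of a gene were summed, so no value separates alleles or isoforms.

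Symbols, lengths, GC content and coordinates (GRCm38) came from GENCODE release M21, which matched 44585 of 45232 IDs. Of 37904 genes with a count, 17834 passed filterByExpr and were tested. Counts were normalized by TMM and fitted in 1 quasi-likelihood model of 5 groups with edgeR 4.0.16 (R 4.3.3), with Benjamini-Hochberg adjustment over all tested genes and a threshold of 0.05. Log2 CPM used a prior count of 2. The script was tested on simulated data. Groups came from the sample labels. Replicate names are unique to each group, so no block could be fitted. For single values, the exact permutation test over libraries was used, two-sided. Alternatives were RLE and upper quartile normalization, GC content offsets (lowess span 0.3), DESeq2 1.42.0, no filter, only the groups compared, Stat5a and Stat5b summed, and each library left out.

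The 9 members were always named. From the 4 pathway lists, up to 4 genes each were considered in vehicle against WT and in combined treatment against vehicle, those with the smallest adjusted p, and for each member the 2 genes with the highest r, which for Tyk2 are not reported here. Members and lists were chosen with earlier results of these data known. Marker lists were described by counts above the floor and summed CPM. Promoter sequences are from RefSeq (GRCm38.p6), which held all 9 members. Protein sequences were not used here.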

Additional observations from a re-analysis of the deposited data

Results flagged for a closer look

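Jak1 and Stat5b are given here because they were called in the interaction test of the quasi-likelihood fit (edgeR). Only combined treatment has the letter B among the groups of that test, so a joint effect of the drugs and the letter cannot be told apart. The change with combined treatment exceeded the sum of the changes with AG221 alone and ruxolitinib alone by 1.791 on the log2 scale for Jak1 (edgeR adjusted p = 0.0431) and by 1.392 for Stat5b (edgeR adjusted p = 0.0444). Both values contain the AG221 libraries A8 and A10, in which Jak1 was at 96.8 and 111 CPM and Stat5b at 80.6 and 86.5 CPM, and A9, in which they were at 213 and 173 CPM. Without A8 or without A10 neither gene was called. Of 12 fits that each left out 1 library, 4 called Jak1 and 3 called Stat5b.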

How the results depend on the processing

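Over 56 log2 fold changes of members, 809 values were computed under alternatives: 651 kept their direction and side of the threshold, 53 gained the call, 98 lost it and 7 changed sign. The number of members called in vehicle against WT was 2; it was 0 with no filter on low counts, 5 with only the groups compared in the fit and 0 to 2 with 1 library left out, while GC content offsets called Tyk2, Stat5a and Stat6 and upper quartile normalization Jak1 and Jak2. In AG221 against vehicle it was 0; it was 2 with upper quartile normalization, 2 with GC content offsets, 6 with DESeq2, 1 with no filter and 0 to 7 with 1 library left out (7 without A9). In combined treatment against vehicle it was 2; it was 1 with RLE, 1 with upper quartile normalization, 1 with no filter and 1 in every fit with 1 library left out, and Jak2 was the gene called each time; it was also 2 with GC content offsets (Jak2 and Tyk2, not Stat6) and 3 with only the groups compared (Jak2, Tyk2 and Stat6). In combined treatment against WT it was 0; it was 1 with GC content offsets, 1 with DESeq2 and 2 with only the groups compared. In AG221 against WT it was 6, and 3 to 8 with 1 library left out (3 without A8 or A10). In ruxolitinib against WT it was 2; it was 0 with no filter and 0 to 2 with 1 library left out, while GC content offsets called Tyk2, Stat5a and Stat6 and upper quartile normalization Jak1 and Jak2. In combined treatment against ruxolitinib it was 2; it was 1 with RLE, 1 with no filter and 1 in every fit with 1 library left out, while GC content offsets and upper quartile normalization called Jak2 and Tyk2, not Stat6. For the interaction it was 2; it was 4 with DESeq2, 0 with only the groups compared and 0 to 8 with 1 library left out (8 without A9).

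An alternative chosen after seeing the data left out the 4 libraries lowest on component 1, after which AG221 had 1 library, assumed to vary like the other groups. The members called were then 6 in vehicle against WT, 2 in combined treatment against WT, 3 in AG221 against WT, 5 in ruxolitinib against WT, 2 in combined treatment against AG221 and 1 for the interaction. It changed the sign of Stat6 in AG221 against vehicle (-0.17) and of Jak3 in combined treatment against vehicle (-0.002). GC content offsets changed the sign of Stat2 in vehicle against WT (0.004) and of Jak3 in combined treatment against vehicle (-0.22). With 1 library left out, Stat3 ranged from -0.034 (without vehicle A3) to 0.253 in vehicle against WT and from -0.272 to 0.014 (without vehicle A3) in combined treatment against vehicle, and Tyk2 from -0.015 (without ruxolitinib A14) to 0.203 in ruxolitinib against vehicle. Per kb of the longest transcript, Stat5b minus Stat5a was -12.54 in WT, -28.57 with vehicle, -25.83 with ruxolitinib and -7.61 with combined treatment, against 8.23, 1.12, 2.49 and 17.63 CPM per kb of merged exon. The cause was not tested, except that fewer libraries and another length follow from the settings themselves.

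Scaling moved the split of all called genes: 46.3% of calls were higher in vehicle against WT, 26.7% with upper quartile normalization and 60.0% with GC content offsets, and in combined treatment against vehicle these were 66.3%, 60.3% and 58.4%. In AG221 against vehicle they were 47.7%, 77.4% and 52.4%, and in combined treatment against AG221 57.0%, 38.0% and 44.4%. The median of all genes was then -0.18 and 0.10 in vehicle against WT, beside -0.09. Scaling by library size alone gave WT means of 37.3 CPM for Jak2 and 198 CPM for Stat6, beside 32.6 and 174 CPM. No paired analysis was possible because the replicate names are unique to each group. With 3 libraries per group, the spread between replicates (coefficient of variation 0.313 in the fit) limits which differences could be called.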
